A study of Mus musculus with 39 samples.

Results

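The 10 genes described here encode RNA-binding proteins that regulate splicing and transcript use as neural progenitors become neurons: Ptbp1, Ptbp2, Elavl2, Elavl3, Elavl4, Srrm4, Nova1, Nova2, Rbfox1 and Rbfox2. They were chosen by name, with earlier results of these data known, and all 10 were found among the 53379 genes of the count tables. The data are RNA-seq libraries of 200 to 400 sorted cells. Mouse neocortex was dissected at E13 or E16 (embryonic days), and each embryo gave red (tdT+), green (GFP+) and yellow (GFP+/tdT+) cells. Of 39 libraries, the 36 with at least 40% uniquely aligned reads were analysed, which left 5 of each colour at E13 and 7 of each colour at E16. The questions were how each gene differed between E13 and E16 within a colour, and between singly coloured and yellow cells within an embryo.

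All embryos, at both ages, carried the MADM-7-GT and MADM-7-TG cassettes of Mosaic Analysis with Double Markers on chromosome 7 together with Emx1-Cre, in a mixed C57BL/6J and CD1 background, with the strain given as CD1. Emx1-Cre is active in progenitors of the dorsal forebrain, so colour marks these progenitors and their progeny. Red and green cells hold both copies of chromosome 7 from 1 parent (uniparental disomy), in opposite parental directions, and yellow cells hold 1 copy from each parent. In the cross the study describes, green cells carry the maternal and red cells the paternal disomy. The labels name colours only, so the libraries were grouped and compared as colours. Both coloured groups and the yellow group carried the same cassettes and Cre, and no embryo without them was analysed here. Nova2 is the only member on chromosome 7.

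In neural progenitors, PTBP1 represses many exons that neurons use, among them an exon of Ptbp2 whose skipping shifts the reading frame and exposes the transcript to nonsense-mediated decay. The microRNA miR-124 lowers Ptbp1 in differentiating neurons, and PTBP2, the neuronal paralogue, then accumulates. SRRM4 promotes the inclusion of neuronal microexons, NOVA and RBFOX proteins bind YCAY and UGCAUG elements to set exon use by position, and the neuronal ELAVL (Hu) proteins bind AU-rich elements and regulate splicing, stability and translation.

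Exons of Ptbp2 and Ptbp1 are shown because the counts below are per gene and do not resolve them. The Ptbp2 exon is exon 10 of 14 of the transcript ENSMUST00000029780.11, at chr3:119724612-119724645 on the minus strand of GRCm38. It is 34 bases long, which leaves a remainder of 1 when divided by 3, and 3 of the 5 coding transcripts of Ptbp2 in Gencode M21 contain it. Capitals mark TCTT, a pyrimidine tetramer that PTB proteins bind.
Ptbp2 exon 10: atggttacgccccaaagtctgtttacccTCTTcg
The exon of Ptbp1 is exon 8 of ENSMUST00000172282.7, at chr10:79860117-79860194 on the plus strand. It is 78 bases long, so its inclusion keeps the reading frame, and 1 of 6 coding transcripts contains it, without a TCTT.
Ptbp1 exon 8: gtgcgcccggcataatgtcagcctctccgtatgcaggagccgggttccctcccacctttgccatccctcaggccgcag

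The promoters of Ptbp1 and Rbfox1 are shown because these were the members whose levels differed most between the ages. RefSeq promoters of GRCm38.p6, 250 bases before to 50 bases after an annotated start, were found for 9 of the 10 members (18 starts), and not for Rbfox2. The Ptbp1 promoter (chr10:79854182-79854481, plus strand) has 22 CpG dinucleotides and 58.3% GC, and the median of all 32851 promoters is 7 CpG and 52.7% GC. Capitals mark the complement of GGGCGG, a GC box.
Ptbp1 promoter: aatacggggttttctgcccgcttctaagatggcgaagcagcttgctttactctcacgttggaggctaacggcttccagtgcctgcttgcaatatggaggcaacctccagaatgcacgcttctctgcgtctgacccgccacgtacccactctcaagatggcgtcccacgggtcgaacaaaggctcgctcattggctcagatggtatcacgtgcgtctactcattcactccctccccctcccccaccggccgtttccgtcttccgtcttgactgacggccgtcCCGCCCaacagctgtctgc
Rbfox1 has 2 listed starts. The upstream one (chr16:5884543-5884842, plus strand) has 3 CpG and 52.7% GC, and the downstream one (chr16:7069585-7069884, plus strand) has 7 CpG.
Rbfox1 upstream promoter: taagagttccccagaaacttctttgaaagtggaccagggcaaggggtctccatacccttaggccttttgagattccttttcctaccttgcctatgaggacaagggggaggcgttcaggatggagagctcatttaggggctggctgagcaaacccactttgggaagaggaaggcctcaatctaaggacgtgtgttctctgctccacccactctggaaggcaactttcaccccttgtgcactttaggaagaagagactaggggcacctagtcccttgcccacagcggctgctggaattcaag
Rbfox1 downstream promoter: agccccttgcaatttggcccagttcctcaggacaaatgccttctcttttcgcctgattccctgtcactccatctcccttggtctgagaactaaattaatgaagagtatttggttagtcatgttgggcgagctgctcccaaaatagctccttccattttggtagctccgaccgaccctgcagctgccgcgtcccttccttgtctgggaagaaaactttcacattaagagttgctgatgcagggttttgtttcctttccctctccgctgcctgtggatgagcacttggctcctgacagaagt
Searched on both strands, GGGCGG was present at 9 of the 18 member starts and in 35.7% of all promoters, the E-box CAGCTG at 9 starts and in 16.3%, and TATAAA at 1 start and in 13.6%. Several starts of Elavl2 and Elavl4 overlap each other, so the 18 windows are not independent. Neither Rbfox1 window holds GGGCGG.

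The kept libraries held 472924 to 5205788 gene counts (median 3452734). Levels are CPM, gene counts relative to the TMM-scaled library total, and 3 counts, the floor taken for a gene, correspond to 0.576 to 6.34 CPM depending on the library. Levels of embryo sums are CPM of the raw summed counts without TMM scaling, and the fits of the sums used TMM. In both, colours with deeper libraries weigh more. The floor covers counting error only, since Smart-Seq2 reads carry no molecular identifiers. The intervals of log2 differences below come from fits across embryos and include the spread between them. The study's sample sheet marks 4 of the kept libraries as not used: E13 yellow replicate 2, E16 red replicates 5 and 6, and E16 yellow replicate 7 (the unused libraries). These had 7858 to 9655 detected genes, against 9610 to 13768 in the other 32, and fitted differences that include them are also given without them. Group levels and orders are over all kept libraries unless a value without them is given. Collection sets in that sheet each hold embryos of 1 age, so set and age cannot be told apart. At E13, replicates 1 to 3 shared a set and replicates 4 to 6 another, and at E16 replicates 1 to 3 and 4 to 7 did. The fits between ages held no term for the set, so they treated embryos of the same set as independent. Sorted pools are bulk samples, in which fewer cells of a type and less RNA per cell cannot be told apart.

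Markers of radial glia, the progenitors of the Emx1 lineage, and of projection neurons, their progeny, were present in every group. Summed over 10 radial glia genes, the median was 2225, 2792 and 1303 CPM in E13 red, green and yellow, and 1557, 2063 and 1136 CPM in the same colours at E16. Summed over 10 projection neuron genes, it was 5008, 4409 and 7250 CPM at E13 and 8872, 8163 and 9851 CPM at E16. E13 yellow cells thus had lower radial glia and higher projection neuron sums than E13 red and green cells, with no overlap in either sum. Cajal-Retzius markers, those of an early cortical neuron type, had summed medians of 129, 117 and 582 CPM in E13 red, green and yellow, and 15.9, 94.3 and 163 CPM at E16. Microglia sums had a median of 30.3 CPM in E13 yellow and 0 in the other 5 groups, with a highest value of 104 CPM, and C1qa and P2ry12 were at 0 in every E13 yellow library. Interneuron sums reached at most 434 CPM, and red blood cell sums ran up to 52840 CPM, in an E13 red library.

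Per kilobase of exon, the neuronal Hu gene Elavl4 had the highest median level of the 10 at both ages, 34.6 CPM per kb over the 15 E13 libraries and 31.2 over the 21 E16 libraries. At E13 it was followed by Elavl2 (17.9), Ptbp2 (14.6), Rbfox2 (11.4), Elavl3 (9.90), Srrm4 (6.60), Ptbp1 (3.61), Nova1 (3.18), Rbfox1 (1.61) and Nova2 (0.225). At E16 the order of medians was Elavl4, Elavl2 (25.3), Ptbp2 (17.7), Elavl3 (12.3), Rbfox1 (11.1), Srrm4 (10.3), Rbfox2 (9.49), Nova1 (1.39), Nova2 (0.694) and Ptbp1 (0.0542). Rbfox1 was in place 9 at E13 and 5 at E16, and Ptbp1 was in place 7 and then 10. Ranges of neighbours in the order overlapped in 9 of 9 pairs at each age, so neighbours did not differ beyond their spread. The plot of all libraries shows the same levels on a CPM scale.

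**Figure D1:**
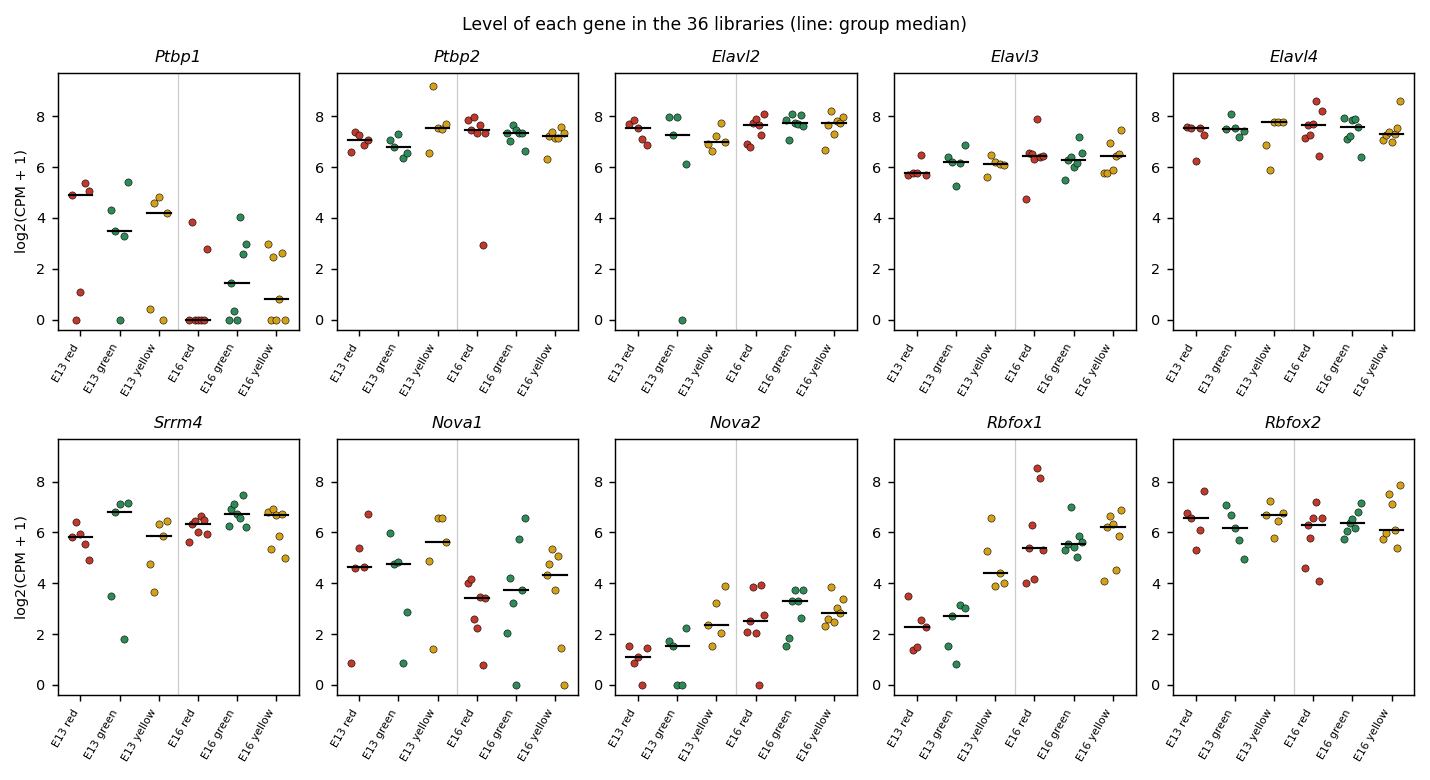
Each panel plots 1 gene, with log2(CPM + 1) on the vertical axis and the 6 groups of age and colour on the horizontal axis; points are libraries and the line is the group median (E13 n = 5, E16 n = 7 per colour). Rbfox1 lies at 0.772 to 10.2 CPM in E13 red and green cells and at 14.9 to 376 CPM in E16 red and green cells, while Ptbp1 is at 0 in 3 of 15 E13 libraries and 10 of 21 E16 libraries.

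Ptbp1 (ENSMUSG00000006498.16, chr10:79854427-79864771, plus strand) encodes the polypyrimidine tract-binding protein of progenitors and most non-neural cells. In E13 red cells, replicates 1, 2, 3, 4 and 6 had 29.3, 0, 1.11, 40.5 and 32.1 CPM. In E13 green cells the same replicates had 18.8, 10.1, 0, 8.78 and 41.3 CPM. In E13 yellow cells, replicates 1, 2, 4, 5 and 6 had 0.315, 22.8, 27.05, 0 and 17.1 CPM. Each colour thus held libraries at or under the floor beside libraries above 15 CPM, and embryo 1 was high in red and green but near 0 in yellow. At E16 the lowest, median and highest values were 0, 0 and 13.2 CPM in red, 0, 1.73 and 15.2 in green, and 0, 0.751 and 6.81 in yellow. More than 3 counts were found in 11 of 15 E13 libraries and 8 of 21 E16 libraries, and the ages overlapped in every colour because E13 libraries at 0 were present in each.

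Summing the 3 colours of an embryo gave 1 Ptbp1 value per animal for the 4 E13 and 7 E16 embryos with all libraries. E13 embryos 1, 2, 4 and 6 had 16.04, 12.4, 26.7 and 31.3 CPM, and E16 embryos had 0 to 6.14 CPM with a median of 3.45. Embryos 1 and 2 of E13, which share a collection set, were lower than embryos 4 and 6 of the other set. All 7 E16 embryos were below all 4 E13 embryos, as were 3.9% of the 13998 genes tested. The log2 difference was -2.49 (SE 0.90, 95% interval -4.42 to -0.57), with an unadjusted p under 0.05 and an adjusted p of 0.151 in edgeR's quasi-likelihood test, so Ptbp1 was lower in E16 embryos without passing the threshold of 0.05 over all genes. DESeq2, which called 7.82% of all genes over embryo sums against 2.64% in edgeR, gave Ptbp1 an adjusted p of 0.0433. Without the libraries marked as not used the difference was -3.13 with an edgeR adjusted p of 0.170.

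Within single colours, the Ptbp1 difference between E16 and E13 was -2.95 in red, -1.90 in green and -2.42 in yellow, each with an interval that included 0 and edgeR adjusted p of 0.632, 0.597 and 0.833. It was -2.47 in red and -1.91 in yellow without the unused libraries. Of the 4740 exon bases of Ptbp1, 983 overlap genes on the opposite strand (E130317F20Rik, Plppr3 and Gm17134), and reads there were not assigned in the unstranded counts. Counting by strand and adding both strands gave 1.42 times the Ptbp1 counts, an embryo difference of -2.86 and an edgeR adjusted p of 0.0379. The share of all genes called with those added counts is not given here. The strand columns held medians of 54.6% and 53.0% of the unstranded counts, so reads did not tell the strands apart. The added counts can therefore include reads of the overlapping genes.

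Ptbp2 (ENSMUSG00000028134.11, chr3:119718742-119784466, minus strand) was abundant in every group. It averaged 133 ± 28.0 CPM (SD, n = 5) in E13 red, 114 ± 30.4 in E13 green and 250 ± 193 in E13 yellow cells. The E13 yellow spread came from replicate 2, with 586 CPM against 93.6 to 205 CPM in the others, and without that library the mean was 166 ± 49.4 CPM (n = 4). At E16 it averaged 170 ± 79.7, 157 ± 33.9 and 148 ± 34.9 CPM (n = 7 each) in red, green and yellow, and 196 ± 41.8 CPM in red without the unused replicates 5 and 6 (n = 5). The ages overlapped in all 3 colours. The log2 difference over embryo sums was -0.03 (95% interval -0.60 to 0.54), and 0.42 without the libraries marked as not used.

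Ptbp2 exceeded Ptbp1 in all 36 libraries. The log2 ratio of Ptbp2 to Ptbp1 averaged 3.96 ± 3.08, 3.68 ± 2.56 and 5.16 ± 2.24 (SD) in E13 red, green and yellow, and 6.50 ± 2.41, 5.98 ± 2.07 and 6.29 ± 1.81 in E16 red, green and yellow. It averaged 5.28 in E13 yellow, 6.71 in E16 red and 6.00 in E16 yellow without the unused libraries. The ratio ranged widely wherever Ptbp1 had libraries at 0, and its ranges overlapped between the ages in each colour.

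Rbfox1 (ENSMUSG00000008658.15, chr16:5885355-7411526, plus strand), which encodes a neuronal UGCAUG-binding splicing regulator, had the smallest p of the 10 genes between the ages in red, in green and over embryo sums. In E13 red cells, replicates 1, 2, 3, 4 and 6 had 10.2, 1.60, 1.78, 4.89 and 3.85 CPM. In E13 green cells the same replicates had 1.88, 5.60, 0.772, 7.95 and 7.08 CPM. These libraries were all low, and the highest of the 10 lay below the lowest E16 library of either colour. At E16, red cells had a lowest value of 14.9, a median of 41.1 and a highest value of 376 CPM, and green cells had 32.1, 45.6 and 128 CPM. All E16 libraries lay above all E13 libraries in both colours, a separation shown in this direction by 0.975% of genes in red and 1.81% in green.

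In green cells, Rbfox1 was higher at E16 by 3.57 on the log2 scale (SE 0.78, 95% interval 1.92 to 5.21), an 11.9-fold difference that passed the threshold (edgeR adjusted p = 0.0337). Rbfox1 was the 1 member called in green, where 1.39% of 11186 genes were called in either direction. The call lay near the threshold and was lost when most single replicates were left out. Leaving out 1 replicate at a time gave adjusted p-values of 0.0297 to 0.0923 and kept the call in 2 of 12 cases, without E13 replicate 4 or without E16 replicate 7, and lost it without any 1 of the other 10, while the difference stayed between 3.21 and 3.81. DESeq2, which called 6.18% of genes in green, gave an adjusted p of 4.96e-06. An unadjusted p under 0.05 was found for 15.7% of genes and for Rbfox1 alone among the members.

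In red cells the Rbfox1 difference was larger, 4.71 (SE 1.06, 95% interval 2.47 to 6.95) and just missed the threshold with an edgeR adjusted p of 0.0736. No member was called in red, where 0.322% of 11174 genes were called, 1305 (11.7%) had an unadjusted p under 0.05, with Rbfox1 alone of the members, and DESeq2 called 312 (2.79%). DESeq2 called Rbfox1 in red with an adjusted p of 7.49e-06. E16 red replicates 5 and 6, marked as not used by the study, had the highest values, 376 and 283 CPM. Without them the E16 red mean fell from 121 ± 146 (n = 7) to 37.8 ± 25.1 CPM (n = 5), and the difference from E13 was 3.07 (SE 0.87, edgeR adjusted p = 0.103).

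Yellow cells behaved less uniformly for Rbfox1. E13 yellow replicates 1, 2, 4, 5 and 6 had 37.5, 95.03, 13.9, 20.2 and 15.3 CPM, and E16 yellow cells had a lowest value of 16.1, a median of 72.4 and a highest value of 116 CPM. The ages overlapped, and replicate 2, marked as not used, was the highest at E13. The difference was 0.86 (SE 0.69, 95% interval -0.60 to 2.32, edgeR adjusted p = 0.904). Without the libraries marked as not used it was 1.41 (SE 0.58, 95% interval 0.16 to 2.66, edgeR adjusted p = 0.317). No member was called in yellow, where 0.149% of 11378 genes were called, 989 (8.69%) had an unadjusted p under 0.05 and DESeq2 called 198.

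Over embryo sums, E13 embryos 1, 2, 4 and 6 had 17.2, 35.4, 9.09 and 9.18 CPM of Rbfox1, and the 7 E16 embryos had 19.5 to 126 CPM with a median of 77.7. Embryos 1 and 2 of E13, which share a collection set, were higher than embryos 4 and 6 of the other set. Of the E16 embryos, 6 lay above the highest E13 embryo, a count not made for all genes. The difference was 2.25 (SE 0.57, 95% interval 1.03 to 3.47), with an edgeR adjusted p of 0.0521. No member was called in the sums, where 2.64% of 13998 genes were called, 2605 (18.6%) had an unadjusted p under 0.05, among them Rbfox1 and Ptbp1, and DESeq2 called 1095 (7.82%). DESeq2 gave Rbfox1 an adjusted p of 0.000977. Without the unused libraries the difference was 2.20 with an edgeR adjusted p of 0.0792.

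**Figure D2:**
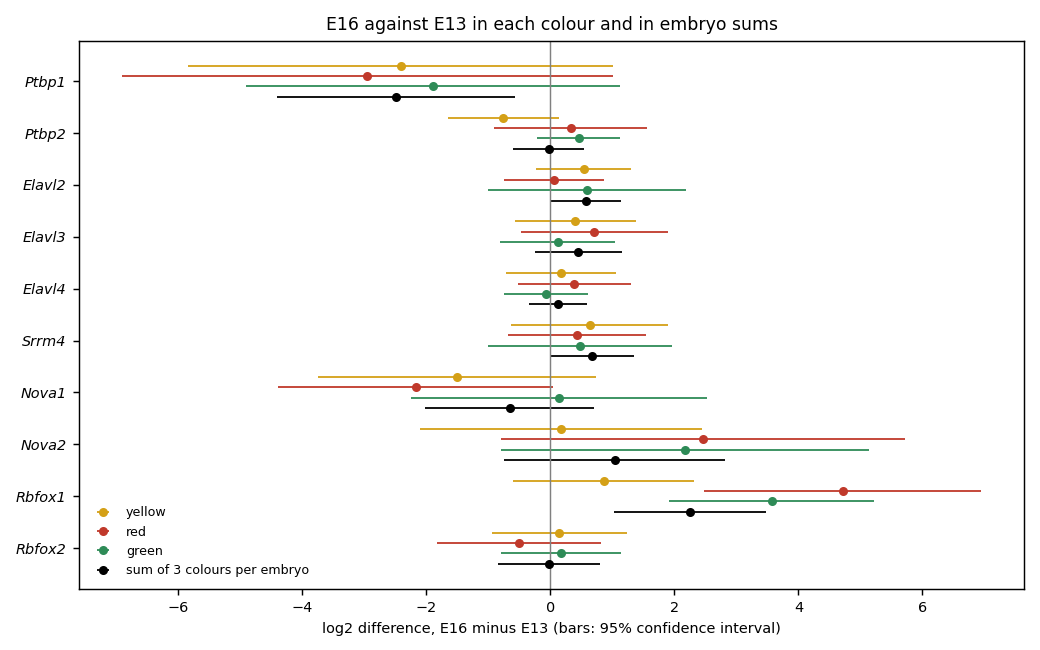
The horizontal axis gives the log2 difference E16 minus E13 from edgeR for each of the 10 genes, with 95% intervals, for yellow, red and green cells and for embryo sums. The intervals of Rbfox1 lie above 0 in red, green and embryo sums, that of Ptbp1 lies below 0 in embryo sums, and those of the other 8 genes include 0 throughout.

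Rbfox2 (ENSMUSG00000033565.17, chr15:77078990-77307004, minus strand), the more widely expressed paralogue, had means of 78.2 to 101 CPM in the E13 groups and 72.2 to 111 CPM in the E16 groups, with overlap in each colour. Its embryo difference was -0.02 (95% interval -0.85 to 0.81), and -0.20 without the unused libraries. The log2 ratio of Rbfox1 to Rbfox2 was below 0 in all 15 E13 libraries, with means of -4.37 ± 1.00, -4.02 ± 1.73 and -1.76 ± 0.79 in red, green and yellow. At E16 the means were 0.11 ± 2.13, -0.72 ± 0.72 and -0.74 ± 0.82, and the ratio was above 0 in 3 red, 1 green and 2 yellow libraries. The unused E16 red replicates 5 and 6 were 2 of the 3 red ones, with 1.34 and 4.09, and without them the E16 red mean was -0.94 ± 1.06 (n = 5). The ages did not overlap in this ratio in red or green cells, with a highest E13 value of -2.004 and a lowest E16 value of -1.53 in green, and overlapped in yellow.

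The Hu genes, early markers of neuronal commitment, were already high at E13. Elavl2 (ENSMUSG00000008489.18, chr4:91250763-91400785, minus strand) had group means of 141 to 176 CPM at E13 and 186 to 217 CPM at E16. Elavl3 (ENSMUSG00000003410.8, chr9:22015005-22052023, minus strand), expressed across neurons, had means of 59.6 to 76.5 CPM at E13 and 82.2 to 99.3 CPM at E16. Elavl4 (ENSMUSG00000028546.17, chr4:110203722-110351909, minus strand) had means of 158 to 191 CPM at E13 and 183 to 211 CPM at E16. Every colour overlapped between the ages for all 3 genes. Their embryo differences were 0.57 (95% interval 0.00 to 1.14) for Elavl2, 0.45 (-0.25 to 1.15) for Elavl3 and 0.12 (-0.35 to 0.59) for Elavl4, with edgeR adjusted p of 0.270, 0.522 and 0.841. The differences without the unused libraries were 0.49, 0.080 and -0.046, and the mean of Elavl3 in E16 red was 75.1 instead of 99.3 CPM.

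Srrm4 (ENSMUSG00000063919.11, chr5:116439275-116591817, minus strand), the microexon regulator, had means of 54.7 ± 20.0, 80.9 ± 69.0 and 52.3 ± 32.8 CPM in E13 red, green and yellow cells, and 74.9 ± 18.3, 112 ± 37.7 and 81.1 ± 37.4 CPM at E16. The mean was higher at E16 in each colour, within ranges that overlapped. The embryo difference was 0.67 (SE 0.32, 95% interval -0.01 to 1.35) with an edgeR adjusted p of 0.279. Without the unused libraries it was 0.79 (95% interval 0.02 to 1.56, edgeR adjusted p = 0.233).

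Nova1 (ENSMUSG00000021047.7, chr12:46694517-46818929, minus strand) and Nova2 (ENSMUSG00000030411.16, chr7:18925888-18965319, plus strand) encode paralogous YCAY-binding proteins. Nova1 averaged 38.6 ± 39.5, 24.7 ± 24.0 and 53.2 ± 40.5 CPM in E13 red, green and yellow and 8.70 ± 5.97, 26.9 ± 34.6 and 18.8 ± 15.1 CPM at E16. Its SD exceeded its mean in 2 of the 6 groups, E13 red and E16 green, with E13 red libraries between 0.807 and 105 CPM. The differences were -2.17 in red (edgeR adjusted p = 0.445), 0.14 in green, -1.50 in yellow and -0.66 over embryo sums. Without the libraries marked as not used it was -1.94 in red, -1.59 in yellow and -1.59 over embryo sums (edgeR adjusted p of 0.365, 0.313 and 0.126).

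Nova2 had the lowest median level of the members at E13 and the second lowest, above Ptbp1, at E16, with at most 63 counts in a library. It averaged 1.10 ± 0.76, 1.59 ± 1.58 and 6.27 ± 4.94 CPM in E13 red, green and yellow, and 6.33 ± 5.35, 7.47 ± 4.33 and 7.11 ± 3.39 CPM at E16. Of the 7 E16 libraries, 6 in red and 5 in green lay above every E13 library of that colour, and none did in yellow. The share of all genes with such a count was not computed. In red and green, Nova2 passed the mean count of 10 only through the E16 libraries. The differences were 2.46 in red, 2.17 in green, 0.17 in yellow and 1.04 over embryo sums, with edgeR adjusted p of 0.627, 0.511, 0.999 and 0.573. Without the unused libraries it was 2.41 in red, -0.13 in yellow and 0.51 over embryo sums. Of the exon bases of Nova2, 2652 of 8372 overlap Gm26821 on the opposite strand, and reads there were not assigned. Counting by strand and adding both strands gave 1.74 times its counts, but these can include reads of Gm26821. How far Nova2 is undercounted here thus cannot be told.

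Across the 10 members, the median log2 difference between E16 and E13 was 0.17 in yellow, 0.36 in red, 0.31 in green and 0.29 over embryo sums. Over all genes tested the medians were -0.06, -0.01, 0.02 and 0.04. The members thus did not move as 1 block: Rbfox1 rose in green, Ptbp1 had negative values throughout, and the other 8 members had intervals that included 0 in all 4 comparisons. Without the unused libraries the embryo sum intervals of Srrm4 and Nova1 and the yellow intervals of Nova1 and Rbfox1 also did not include 0, with no call.

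Related RNA-binding regulators outside the 10 (27 listed genes) included 1 that rose in green: Celf2, a CELF-family splicing regulator, by 1.63 (SE 0.26, edgeR adjusted p = 0.00531), from 1105 ± 266 CPM at E13 (n = 5) to 3419 ± 1326 at E16 (n = 7). Of all genes, 1.39% were called in green and 2.64% over embryo sums. None of the 24 tested in yellow or 21 in red was called by edgeR. An unadjusted p under 0.05 was found for 5 in yellow, 3 in red, 6 of 21 in green and 6 of 25 over embryo sums. The shares of all genes were 8.69%, 11.7%, 15.7% and 18.6%. Over embryo sums 2 of 25 rose and 1 fell: Celf2 by 1.07 (edgeR adjusted p = 0.00552), Khdrbs2, which encodes the STAR protein SLM1, by 1.83 (0.0275), and Mbnl3, a muscleblind-like gene that was at 0 in 20 of the 21 E16 libraries (0.0190). Of 40 general splicing factors, Hnrnpl fell in green by 1.89 on the log2 scale (edgeR adjusted p = 0.0329) and Snrpb, a core snRNP gene, fell over embryo sums by 0.69 (0.0490), and no other comparison between ages called one. The mean of Hnrnpl was higher at E16 in red (365 to 381 CPM) and yellow (131 to 159 CPM). Its median was lower at E16 in both (393 to 190 and 142 to 114 CPM). An unadjusted p under 0.05 was found for 0 of 38 tested in yellow, 5 of 39 in red, 11 of 40 in green and 9 of 40 over embryo sums.

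Among 12 genes linked to the members as regulators or known targets, Mapt rose in red by 2.44, in green by 2.58 and over embryo sums by 1.54 (edgeR adjusted p of 0.0333, 0.0417 and 0.00330), and Gap43, whose transcript is bound by ELAVL4, rose in green by 1.18 (0.0475). Mapt is also on the projection neuron list. Rest, which encodes a repressor of neuronal genes including Srrm4, had an embryo difference of -1.65 (edgeR adjusted p = 0.314), and the miR-124 host gene Mir124a-1hg one of 1.93 (0.0934). Another miR-124 host gene, Mir124-2hg, had E13 medians of 149, 86.4 and 270 CPM in red, green and yellow. Its E16 medians were 98.8, 211 and 235 CPM, lower than at E13 in red and yellow and higher in green. No gene of these 3 lists was called between singly coloured and yellow cells at either age, where 0.00848% (E13) and 0% (E16) of all genes were called.

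Within E13 embryos, Rbfox1 was lower in red and in green cells than in the yellow cells of the same embryo in 8 of 8 pairs, as were 2.57% of genes. Averaged over red and green, the log2 difference was -2.87, -4.69, -1.08 and -1.44 in embryos 1, 2, 4 and 6. All 4 embryos were below 0, and embryo 2, whose yellow library is marked as not used, was the lowest. In edgeR with the embryo as a block the difference was -2.64 (SE 1.15, 95% interval -5.12 to -0.16, adjusted p = 0.712), with an unadjusted p under 0.05. Without the libraries marked as not used it was -1.77, with an interval that included 0 (-4.57 to 1.03, edgeR adjusted p = 0.751). Over the marker lists in the same comparison, all 6 Cajal-Retzius genes tested had differences below 0 (median -2.20, with 2 at an unadjusted p under 0.05). So had all 3 microglia genes tested (median -6.80, with 3) and all 10 projection neuron genes (median -0.55, with 4). All 8 radial glia genes tested (median 1.11, with 1) and all 4 intermediate progenitor genes tested (median 1.09, with 2) were above 0. None of these genes was called by edgeR. The part of these cell types in the Rbfox1 difference was not tested. No member was called in this comparison, where 0.00848% of 11786 genes were called, 808 (6.86%) had an unadjusted p under 0.05 and DESeq2 called 538.

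Ptbp2 was lower in singly coloured than in yellow E13 cells by a log2 difference of -0.98 (SE 0.41, edgeR adjusted p = 0.689, unadjusted p under 0.05), in 6 of 8 pairs. Without the libraries marked as not used the difference was -0.55 (95% interval -1.39 to 0.30). Nova2 was lower in 7 of 8 pairs, with a difference of -2.84 (SE 2.00, edgeR adjusted p = 0.845), and -3.71 without the unused libraries (adjusted p = 0.689). It had at most 8 counts in an E13 red and 15 in an E13 green library, and passed the mean count of 10 only through the yellow libraries. The shares of all genes with as many pairs lower were not computed for Ptbp2 or Nova2. Ptbp1 differed by 0.26 (95% interval -3.29 to 3.82), or by 1.36 without the unused libraries, and embryos spread from -3.18 to 4.69. That interval spans changes of many fold in both directions, so a difference of Ptbp1 between singly coloured and yellow cells was not detectable at this depth and number.

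At E16 the 4 genes lay close to 0 or had wide intervals. Rbfox1 differed by 0.03 (95% interval -1.30 to 1.36) with 5 of 14 pairs higher and 9 lower in singly coloured cells, Ptbp2 by 0.08 (-0.86 to 1.01), Nova2 by -0.13 (-2.10 to 1.83) and Ptbp1 by -1.57 (-5.93 to 2.79). These were -0.39, 0.39, -0.15 and -1.85 without the unused libraries. No gene was called in edgeR (0% of 10794 genes), 257 (2.38%) had an unadjusted p under 0.05 and DESeq2 called 82.

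**Figure D3:**
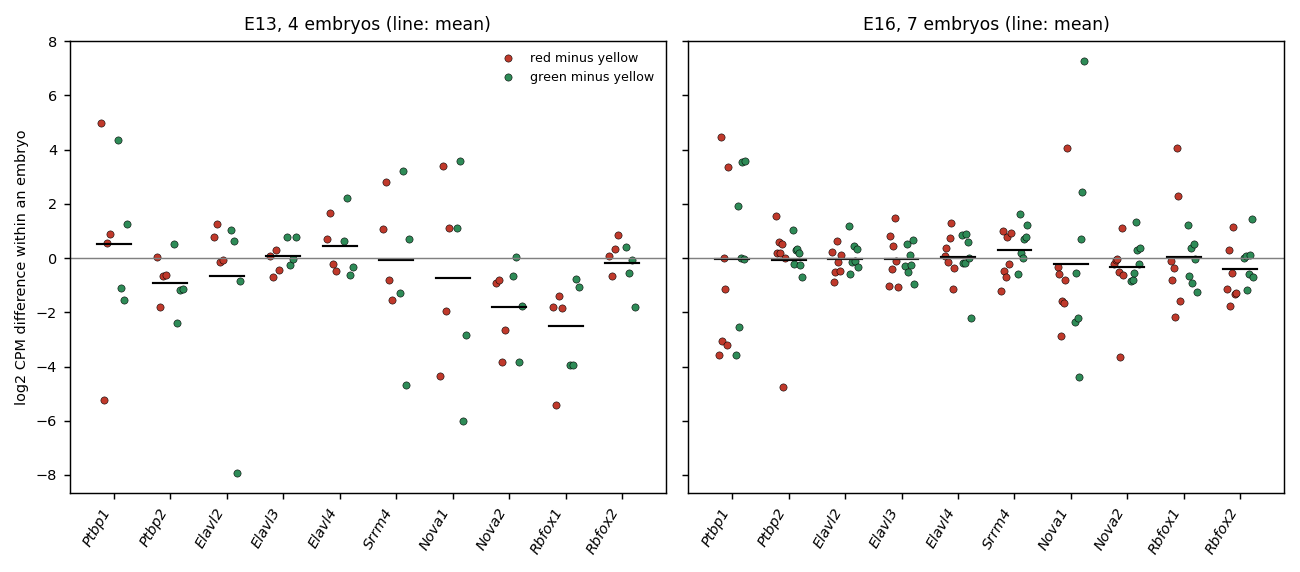
Each point is 1 embryo's log2 CPM difference, red minus yellow or green minus yellow, for the 10 genes at E13 (4 embryos) and E16 (7 embryos), with a line at the mean. For Rbfox1 all 8 E13 points are below 0, and at E16 5 of 14 are above 0.

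The change of the Rbfox1 colour contrast between the ages was 2.67 (SE 1.09, 95% interval 0.43 to 4.91) with an unadjusted p under 0.05 and an edgeR adjusted p of 1. Without the libraries marked as not used it was 1.38, with an interval that included 0 (-0.37 to 3.14). For Ptbp2 it was 1.05 (95% interval -0.33 to 2.43). The Ptbp2 value without the unused libraries was 0.94 (0.10 to 1.77, edgeR adjusted p = 0.624). For Nova2 it was 2.67 and for Ptbp1 -1.85, or 3.48 and -3.14 without the unused libraries, each with an interval that included 0. No gene was called for this difference (0% of 11472 genes), 475 (4.14%) had an unadjusted p under 0.05 and DESeq2 called 219.

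Marker levels moved with Rbfox1. Over the 36 libraries its log2 CPM had a Pearson's r of -0.76 (Spearman's rho -0.87) with the mean log2 CPM of the radial glia list and 0.77 (0.81) with that of the projection neuron list. Within E13 (n = 15) the values were -0.64 and 0.41, and within E16 (n = 21) -0.48 and 0.69. For Ptbp1, r was 0.39 with radial glia and -0.40 with projection neurons over all libraries, but 0.04 and -0.17 within E13 and 0.20 and -0.01 within E16. With Cajal-Retzius markers r was 0.45 for Ptbp1 and -0.33 for Rbfox1 over all libraries, and 0.17 and 0.51 within E13. Over embryo sums 5 of 6 Cajal-Retzius genes were below 0 at E16 against E13 (median -3.27), and 1 was called, as were 2.64% of all genes. Of 9 radial glia genes tested in the sums, 7 were below 0 (median -1.89) and 6 were called lower by edgeR. Of 10 projection neuron genes, 8 were above 0 (median 0.90) and 5 were called higher. Libraries share embryos, collection sets and depth, so these are descriptions. The part of cell composition in the differences of Rbfox1 and Ptbp1 was not tested.

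**Figure D4:**
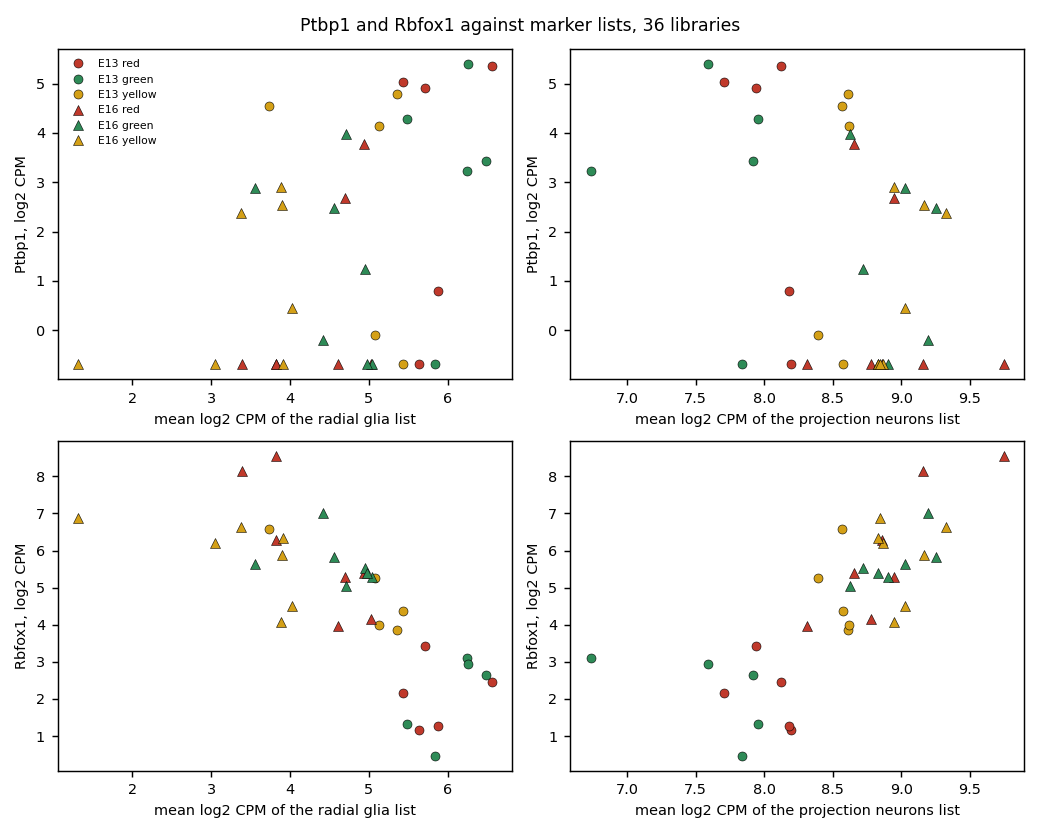
The vertical axes give log2 CPM of Ptbp1 and Rbfox1 and the horizontal axes the mean log2 CPM of the radial glia or projection neuron list in each of the 36 libraries, with circles for E13, triangles for E16 and the colour of the sorted cells. Rbfox1 falls along the radial glia axis (r = -0.76) and climbs along the projection neuron axis (r = 0.77), and the E13 red and green circles sit at its low end.

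Among the 10 genes, 45 pairwise correlations of log2 CPM over the 36 libraries ranged from -0.38 (Nova1 and Rbfox1) to 0.63 (Elavl2 and Srrm4), with a median of 0.13. Values above 0.3 were found for 8 pairs and below -0.3 for 2, the other being Ptbp1 with Rbfox1 (-0.33). The Elavl2 and Srrm4 value rested on E13 green replicate 4, in which Elavl2 had a count of 0 and Srrm4 its lowest level, 2.51 CPM, and without that library r was 0.13 (an alternative added after the data were seen). Rbfox1 had r of 0.51 with Nova2 and 0.50 with Elavl3, and 0.73 and 0.34 without the unused libraries. Ptbp1 with Rbfox1 was 0.20 within E13 and -0.30 within E16. Most pairs of these factors thus varied with little relation to each other across libraries.

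**Figure D5:**
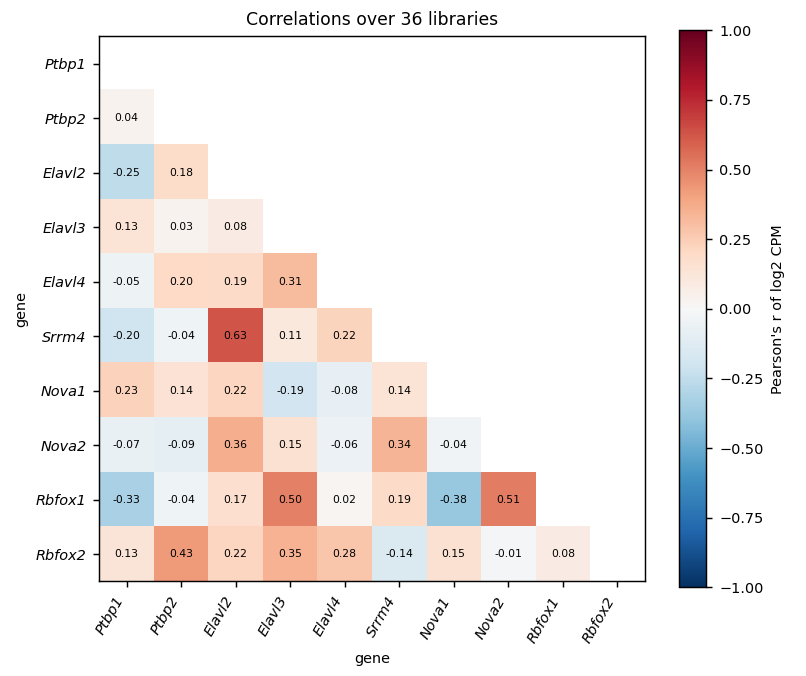
The matrix gives Pearson's r of log2 CPM between each pair of the 10 genes over 36 libraries, from -1 (blue) to 1 (red). Elavl2 with Srrm4 (0.63, but 0.13 without E13 green replicate 4), Rbfox1 with Nova2 (0.51) and Rbfox1 with Elavl3 (0.50) are the highest values, and the Ptbp1 column lies between -0.33 and 0.23.

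Of 10636 protein-coding genes, those whose log2 CPM was most like Ptbp1 over the 36 libraries were Mavs (r = 0.67), Crtac1 (0.64) and Lig1 (0.63). Those most like Elavl3 were Csnk1e (0.75), Marcksl1 (0.68) and Adgrl2 (0.66). For Rbfox1, a gene chosen for this after its values were seen, they were Clstn2 (0.79), Prkar1b (0.78) and Sla (0.76).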

How the data were processed

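Per the labels, cells were sorted without RNA extraction, libraries were made by Smart-Seq2 from polyA RNA, and single individuals were replicates. The authors aligned reads with STAR 2.5.0c to GRCm38 with Gencode M16, kept single alignments, and deposited whole-number read counts per gene, not normalised, in an unstranded and 2 stranded columns. The submitters' processing notes also name SAMtools 1.8 and bedtools 2.26.0. The unstranded counts were used, in which reads falling in overlapping genes are not assigned, so members that overlap other genes may be undercounted. Symbols and coordinates are from Gencode M21 of the same build (53274 of 53379 genes matched).

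Libraries with under 40% uniquely aligned reads (18.8% to 36.1%) were left out, namely replicate 5 of E13 red and of E13 green and replicate 3 of E13 yellow. Those kept had 50.5% to 66.0%. Genes with a mean count of at least 10 in a fit entered edgeR 4.0.16 under R 4.3.3 (TMM, quasi-likelihood test, Benjamini-Hochberg over all genes, threshold 0.05), and all 10 members passed in every comparison. In some comparisons Nova2 and Ptbp1 passed only through the group with the higher counts. Ages were compared per colour and over counts summed per embryo. Singly coloured cells (mean of red and green) were compared with yellow cells with the embryo as a block, after the study's sample term. The same age and replicate number were taken as 1 embryo, since replicates were individuals. Deviations from group means correlated on average by 0.0439 between same-numbered libraries at E13 (13 pairs) and -0.00919 between others, and by 0.0294 (21 pairs) and -0.00357 at E16. No 2 count tables were identical.

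SE is the size of the log2 difference divided by the square root of F. Log2 CPM used a prior count of 2. DESeq2 1.42.0, other scaling, filters, library sets, blocks and leaving out each replicate were alternatives, and counting by strand was added after the data were seen. Scripts were tested on simulated data. All 10 members are named throughout, up to 3 genes with the smallest p of those called per related list, and the 3 genes most like Ptbp1 and Elavl3. Rest and the miR-124 host genes were named without a call. The members and lists were chosen with earlier results of these data known.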

Additional observations from a re-analysis of the deposited data

Results flagged for a closer look

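Single libraries stood apart from the rest of their group in 7 of the 60 combinations of member and group, where chance alone gives about 1 in 20. Ptbp2 was at 6.57 CPM in E16 red replicate 6, against 161 to 249 CPM in the other E16 red libraries, and at 79.2 CPM in E16 yellow replicate 1, against 142 to 193 CPM. Elavl2 had a count of 0 in E13 green replicate 4, against 68.6 to 249.98 CPM in the other E13 green libraries. Elavl3 was at 88.8 CPM in E13 red replicate 4, against 50.3 to 54.2 CPM. Elavl4 was low in E13 red replicate 3, at 74.7 CPM against 154 to 190 CPM, and high in E16 yellow replicate 7, at 388 CPM against 127 to 186 CPM. Rbfox1 was at 128 CPM in E16 green replicate 3, against 32.1 to 56.5 CPM. E16 red replicate 6 and E16 yellow replicate 7 are among the libraries the study marked as not used.

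The 3 libraries left out for few uniquely aligned reads also held counts of these genes above the floor of 3 counts. All 10 members exceeded it in E13 yellow replicate 3, 6 did in E13 red replicate 5 and 2 in E13 green replicate 5.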

How the results depend on the processing

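Of the numbers of called genes under alternatives, 63 stayed within 1.5 times the main number and 59 did not. With DESeq2 the calls were 198 in yellow, 312 in red, 691 in green, 1095 over embryo sums, 538 for singly coloured against yellow cells at E13, 82 at E16 and 219 for the difference between the ages, against 17, 36, 155, 370, 1, 0 and 0. Without a filter on low counts there were 55 calls in yellow, 20 in the colour contrast at E13, 2 at E16 and 26 for the difference. With all 39 libraries there were 5 in red, 36 in green and 0 in the E13 colour contrast. With the libraries the study used there were 146 in yellow, 189 in red and 9 in the E13 colour contrast. With 1 fit of 6 groups red had 89, and with RLE factors the E13 colour contrast had 2.

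Without the replicate block, the E13 colour contrast gave 9 calls, and Ptbp1 in the E16 contrast was 0.43. With the collection set as the block these were 18 and 0.52. The block changed no member's call.

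Leaving out 1 replicate gave 1 (without E13 replicate 4) to 31 calls (without E16 replicate 7) in yellow, 5 (E13 replicate 2) to 78 (E16 replicate 5) in red, 71 (E16 replicate 3) to 203 (E16 replicate 7) in green, 150 (E13 replicate 4) to 527 (E16 replicate 7) over embryo sums, 0 to 7 (E13 replicate 2) in the E13 colour contrast and 0 to 1 for the difference between the ages. Of the log2 differences given above, Nova2 in yellow (-0.076 to 0.70) and Nova1 in green (-0.64 to 0.82) changed sign among these. Ptbp2 (-0.20 to 0.32) and Rbfox2 (-0.34 to 0.10) did over embryo sums, and Ptbp1 in the E13 contrast (-0.51 to 1.34). In the E16 contrast Ptbp1 (-2.59 to 0.18, tested in 4 of 7 cases), Ptbp2 (-0.11 to 0.31) and Rbfox1 (-0.36 to 0.37) did. Differences not given above changed sign for Elavl4 and Rbfox2 in yellow, Elavl2 in red, and Elavl3, Elavl4 and Rbfox2 in green. The E13 contrast did so for Elavl2, Elavl3, Elavl4, Srrm4, Nova1 and Rbfox2, and the E16 contrast for Elavl2, Elavl3 and Elavl4. The difference between the ages did so for Elavl2, Elavl3, Elavl4, Srrm4 and Nova1.

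Other sign changes among the differences given above came with the libraries the study used. These were Nova2 in yellow (-0.13), Ptbp2 (0.42) and Elavl4 (-0.046) over embryo sums and Rbfox1 in the E16 contrast (-0.39). With all 39 libraries they were Elavl2 (-0.12), Elavl4 (-0.18) and Rbfox2 (0.074) over embryo sums and Ptbp1 in the E13 contrast (-1.02). Rbfox2 over embryos with any kept library was 0.15, and Rbfox1 in the E16 contrast was -0.012 with RLE factors and -0.011 with DESeq2. None of these members was called in the comparison concerned. The causes were not tested.

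Of all 1216 member values under alternatives, 103 had the other sign. Members were called under an alternative 17 times, Rbfox1 or Ptbp1 in each case. Rbfox1 kept its call in green in 8 of 19 alternatives (adjusted p of 4.96e-06 to 0.0923), and was called in red in 2 of 19 (DESeq2 and 1 fit of 6 groups, 0.00580) and over embryo sums in 5 of 18 (DESeq2, all 39 libraries at 0.0211, any kept library at 0.0296, without E13 replicate 2 at 0.0407 and without E16 replicate 1 at 0.0330). Ptbp1 was called over embryo sums in 2 of 18 (adjusted p of 0.0379 to 0.357). The DESeq2 fit moved the median of all genes in red by -0.12, and RLE factors alone moved it by -0.035. In the other comparisons neither moved a median by over 0.1. Genes with few counts, above all Nova2 and Ptbp1, are limited by depth.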
